A study of Mus musculus with 6 samples.

Results

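Aminoacyl-tRNA synthetases attach amino acids to their transfer RNAs, and their genes were taken from the deposited table as all rows whose symbol is a letter followed by "ars" with or without a final 1 or 2, together with Eprs, Farsa and Farsb. The rule found 37 of the 16403 genes in the table, 20 for cytosolic enzymes and 17 whose symbol ends in 2, the mitochondrial enzymes. All 37 passed the filter on low counts and were among the 12564 genes tested. Bulk messenger RNA was measured in LSK cells (lineage-negative, Sca-1-positive and Kit-positive), which include the blood stem cells and their earliest progeny, sorted from the bone marrow of C57BL/6 mice. The LIP group (ligature-induced periodontitis, a ligature tied around a tooth so that bacteria gather and the gum becomes inflamed) and the unligated NL group had 3 libraries each, every library being a pool of 3 mice, and the marrow came from day 7. The comparison addressed how a local inflammation of the gum is reflected in progenitor transcripts at a distance. As mice were pooled, p-values here measure the spread between pools and not between single animals.

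Each synthetase recognises 1 amino acid and its matching tRNAs, activates the amino acid with ATP and transfers it to the tRNA, which then feeds the ribosome. Nuclear genes encode the cytosolic set and, mostly as separate genes, the set imported into mitochondria to translate the respiratory chain subunits made there. Uncharged tRNA activates the kinase GCN2, which phosphorylates eIF2α and raises translation of ATF4, a transcription factor that induces several cytosolic synthetase genes, amino acid transporters and amino acid synthesis enzymes. Blood progenitors are sensitive to the rate of protein synthesis, and inherited defects of several of these enzymes affect blood formation.

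Library totals lay between 17780853 and 18841103 estimated counts. Levels relative to library size are given as CPM with TMM scaling, and levels per transcript length as the authors' TPM. Of the LSK markers, Kit rose by 0.18 on the log2 scale and Ly6a, Cd34, Flt3 and Slamf1 were not called. Of 11 tested markers of lineages that the sort should remove, 6 rose and 2 fell, while 14.1% of all tested genes were called higher and 15.8% lower. Their summed level was 522 to 540 CPM in NL and 558 to 599 CPM in LIP. The monocyte marker Ly6c2 made up most of this sum, at 318 to 328 CPM in NL and 356 to 396 CPM in LIP, and the sum without it was 204 to 212 CPM in NL and 203 CPM in each LIP library. The summed LSK markers were 2121 to 2129 in NL and 2171 to 2209 CPM in LIP. The neutrophil marker Ly6g had between 0 and 3 counts per library. The part of these cells in the values below was not tested, and in bulk RNA fewer cells of a type and less RNA per cell cannot be told apart.

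Transcripts of cytosolic synthetases were more abundant than those of mitochondrial ones. In NL the median level was 82.2 TPM over the 20 cytosolic genes, with a range from 23.0 TPM for Cars to 210 TPM for Kars, and 19.0 TPM over the 17 mitochondrial genes, from 6.20 TPM for Wars2 to 51.7 TPM for Tars2. Kars, which encodes lysyl-tRNA synthetase and serves both compartments from a single gene, read 206, 208 and 217 TPM in NL replicates 1, 2 and 3 and 224, 226 and 222 TPM in LIP replicates 1, 2 and 3. Every Kars value lay above every value of the next genes, Dars for aspartate (148 ± 1.53 TPM in NL, SD, n = 3) and Vars for valine (144 ± 1.43 TPM). In NL every Dars library lay just above every Vars library, whereas in LIP Vars, at 171 ± 5.49 TPM, lay above Dars, at 151 ± 6.03 TPM. Wars2, for mitochondrial tryptophan, was lowest at 6.21, 6.30 and 6.10 TPM in NL and 6.22, 7.29 and 6.67 TPM in LIP. Gars, the other gene that serves both compartments, stood at 112 ± 3.30 TPM in NL.

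The summed cytosolic level was 1755, 1771 and 1789 TPM in the NL libraries and 1891, 1985 and 1905 TPM in the LIP libraries, and the summed mitochondrial level 399 to 401 and 435 to 452 TPM. Both sums were higher in LIP on this scale, but the log2(TPM + 1) of all tested genes also had a median shift of 0.11 between the groups. Summed as CPM, the cytosolic set read 2846 to 2908 in NL and 2879 to 2929 in LIP, so the groups overlapped. The mitochondrial set read 612 to 614 CPM in NL and 620 to 630 CPM in LIP, and the groups did not overlap. The ratio of cytosolic to mitochondrial TPM was 4.38 to 4.48 in NL and 4.34 to 4.39 in LIP, with overlap.

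**Figure D1:**
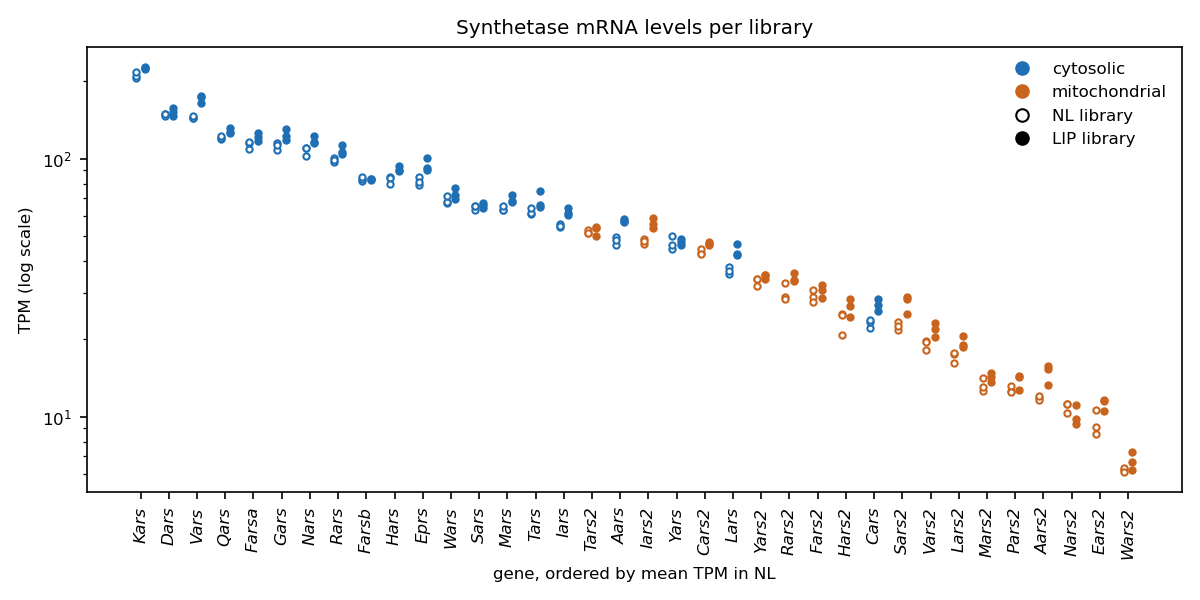
Level of each synthetase mRNA as TPM on a log axis, 1 point per library, open for NL and filled for LIP, blue for cytosolic and orange for mitochondrial enzymes, ordered by the NL mean, with 1 mitochondrial gene not shown. Kars is highest at 206 to 226 TPM, Wars2 lowest at 6.10 to 7.29 TPM, and most cytosolic genes lie above most mitochondrial ones.

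The synthetase genes as a family stayed near their NL level in LIP, with small changes in both directions. A call is a Benjamini-Hochberg adjusted p below 0.05 in the quasi-likelihood test of edgeR, fitted to the whole table for LIP against NL. Of the 37 members 10 were called, 27.0%, against a background of 29.9% of all tested genes and of 35.4% of the 8413 tested genes within the family's range of average level. Higher calls numbered 6 and lower calls 4, with 14.1% of all genes called higher and 15.8% called lower. The cytosolic set had 3 higher and 3 lower calls and a median log2 fold change of 0.00, and the mitochondrial set 3 higher and 1 lower and a median of 0.03, beside a median of -0.001 over all genes. These splits depend on the scaling: with total counts only they were 5 higher and 0 lower for the cytosolic set and 4 and 1 for the mitochondrial set, and with limma on log2(TPM + 1) they were 13 and 0, and 8 and 0. The median size of change without regard to sign was 0.057 for the family and 0.105 for all tested genes, or 0.088 for the genes within that range. The groups did not overlap in CPM for 17 members, 45.9%, against 40.9% of all tested genes and 46.2% of those within the range.

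The largest change was that of Nars2, which fell by 15.8%. The bounds of the 95% confidence intervals of the log2 fold change reached from -0.41 to 0.34 over the 37 members, and from -0.19 to 0.34 over the 27 that were not called. Between replicates the median coefficient of variation was 2.96% in NL and 3.08% in LIP. DESeq2 called 2 of the 37, Vars and Farsb, against 21.0% of the genes to which it gave an adjusted p, and 10 members had an unadjusted p below 0.05 with DESeq2 and 13 with edgeR. Without NL replicate 2 the edgeR calls were 3 cytosolic (3 higher) and 0 mitochondrial, with 5 mitochondrial members at an unadjusted p below 0.05. Without LIP replicate 2 and LIP replicate 3 the mitochondrial calls were 2 and 1.

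**Figure D2:**
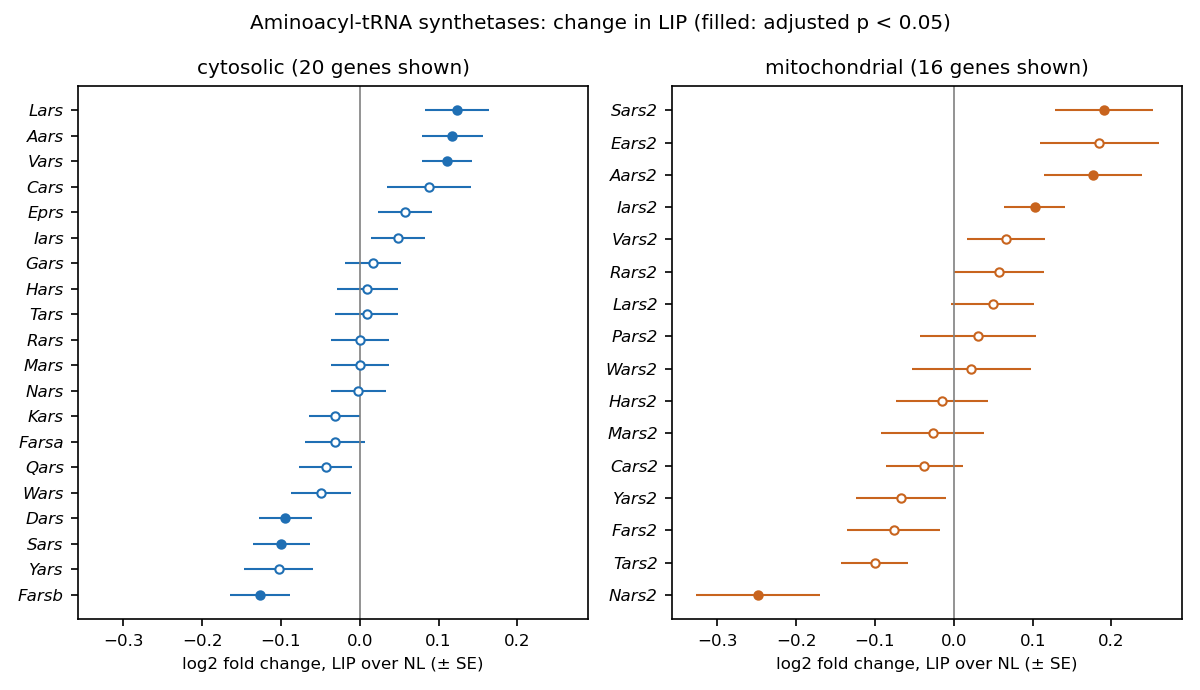
Log2 fold change of LIP over NL for each synthetase gene, with its standard error as a horizontal bar, cytosolic enzymes on the left and mitochondrial enzymes, 1 of them not shown, on the right; filled points have an edgeR adjusted p below 0.05. The points run from -0.25 for Nars2 to 0.19 for Sars2 on either side of 0. With log2(TPM + 1), where the median of all genes is 0.11, 13 cytosolic and 8 mitochondrial genes are called, all higher. Of the genes below 0 here and called on either scale, Dars, Sars, Kars and Nars stand above 0 there, the last 2 past the threshold. Some others, such as Qars, change side without a call.

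Among cytosolic enzymes Vars, Aars and Lars rose. Vars, the valine enzyme (chromosome 17, 35000907 to 35016329, RefSeq on GRCm38), read 351, 353 and 357 CPM in NL replicates 1, 2 and 3 and 374, 379 and 392 CPM in LIP replicates 1, 2 and 3. The LIP values were higher than each NL value, with a log2 fold change of 0.11 ± 0.03 (SE), 7.96% higher, and an edgeR adjusted p of 0.00567. Aars, which charges alanine tRNA and also clears serine and glycine that it has mistakenly activated (chromosome 8, 111027778 to 111055569), read 97.7, 105 and 101 CPM in NL and 110, 108 and 112 CPM in LIP. Its log2 fold change was 0.12 ± 0.04, with an edgeR adjusted p of 0.0150. Lars, the leucine enzyme, which is also described as a leucine sensor upstream of mTORC1, read 80.7, 87.2 and 83.6 CPM in NL and 89.7, 95.2 and 89.2 CPM in LIP. The groups did not overlap, and the log2 fold change was 0.12 ± 0.04 with an edgeR adjusted p of 0.0157. Eprs, the fused glutamate and proline enzyme, came next at 220, 234 and 225 CPM in NL and 232, 245 and 230 CPM in LIP, with overlapping groups, a log2 fold change of 0.06 and an edgeR adjusted p of 0.203.

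The rise of Vars was called in all 6 fits that left out 1 library. The Aars call was lost without NL replicate 1 (edgeR adjusted p = 0.103) or LIP replicate 3 (0.0541), and the Lars call without NL replicate 1 (0.107) or LIP replicate 2 (0.124). With an offset for transcript length and GC content Vars stood at 0.03 and Aars at 0.05, with edgeR adjusted p of 0.417 and 0.320.

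Farsb, Sars and Dars fell in the TMM-scaled test, although with log2(TPM + 1) Sars and Dars stood at 0.03 each and Farsb at -0.01, none of them called. The median of all genes on that scale was 0.11. Farsb encodes the β subunit of cytosolic phenylalanyl-tRNA synthetase, which works as a tetramer of α and β chains (chromosome 1, 78417958 to 78488897). It read 101, 105 and 105 CPM in NL replicates 1, 2 and 3 and 96.9, 94.2 and 94.3 CPM in LIP replicates 1, 2 and 3. The groups were apart, with a log2 fold change of -0.13 ± 0.04 (SE) and an edgeR adjusted p of 0.00845. The Farsb counts were not whole numbers in every library, a sign of reads divided between genes. Farsa, the gene of the α subunit, read 115, 123 and 123 CPM in NL and 115, 115 and 122 CPM in LIP, with a log2 fold change of -0.03 and an edgeR adjusted p of 0.572. The interval of the Farsa change, -0.11 to 0.04, overlapped that of Farsb, -0.20 to -0.05.

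Sars, the serine enzyme (chromosome 3, 108424864 to 108445259), read 136, 143 and 141 CPM in NL and 129, 131 and 132 CPM in LIP, a log2 fold change of -0.10 ± 0.04 with an edgeR adjusted p of 0.0285. Dars (chromosome 1, 128363707 to 128417416) read 194, 193 and 194 CPM in NL and 184, 185 and 176 CPM in LIP, a log2 fold change of -0.09 ± 0.03 with an edgeR adjusted p of 0.0267. In both genes every LIP library lay below every NL library. Yars, the tyrosine enzyme, read 74.5, 78.1 and 84.2 CPM in NL and 76.1, 70.6 and 73.9 CPM in LIP, with overlapping groups, a log2 fold change of -0.10 and an edgeR adjusted p of 0.0687. With total counts alone Farsb, Sars and Dars stood at -0.08, -0.055 and -0.05 and none was called, with edgeR adjusted p of 0.0963, 0.254 and 0.271 and unadjusted p below 0.05 in 7 of the 20 cytosolic genes. All 3 calls were also lost without NL replicate 2 (edgeR adjusted p of 0.0524, 0.158 and 0.0765). The Sars and Dars calls were lost without NL replicate 3 (0.0995 and 0.0805), that of Dars without NL replicate 1 (0.0817) or LIP replicate 3 (0.130), and that of Sars without LIP replicate 1 (0.0925) or LIP replicate 2 (0.0533).

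The 12 cytosolic genes besides these 8 ranged in log2 fold change from -0.05 for Wars to 0.09 for Cars, and none was called by edgeR or DESeq2 or had an unadjusted edgeR p below 0.05. Cars, for cysteine, and Iars, for isoleucine, had all LIP libraries above all NL libraries, with edgeR adjusted p of 0.223 and 0.311. Qars, for glutamine, had all LIP libraries below NL in CPM, with an edgeR adjusted p of 0.356, but all above NL in TPM. The Qars TPM were 119, 121 and 122 in NL and 127, 131 and 126 in LIP. Rars and Mars, for arginine and methionine, stood at 0.00 with intervals from -0.07 to 0.07. Nars, for asparagine, Tars, for threonine, Hars, for histidine, and Gars, for glycine, stood between -0.00 and 0.02, and Kars at -0.03.

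ATF4 acts on several synthetase genes through an element with the core TGATGNAA, which is shared by ATF4 and C/EBP factors. The promoter sequences are shown because this element links the family to the amino acid response described below. It was searched on both strands of the 250 bases before each annotated start, in RefSeq promoter windows on GRCm38.p6, and was chosen after the expression values were seen. Windows were found for 27 of the 37 members, and 3 of their 28 windows held a match, 10.7%, against 3.45% of all 32851 windows. The 3 genes were Aars, Gars and Tars, each with the element on the strand opposite to the gene, so that the gene strand shows its reverse complement in capitals, with up to 20 bases on either side.
Aars, chr8:111033710-111033757, plus strand, within the gene span given above and 112 bases before the start of this window's transcript: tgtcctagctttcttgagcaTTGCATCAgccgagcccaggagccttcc
Gars, chr6:55037951-55037998, plus strand, 30 bases before the start: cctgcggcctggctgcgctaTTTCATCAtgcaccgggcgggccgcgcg
Tars, chr15:11399659-11399693, minus strand, 15 bases before the start: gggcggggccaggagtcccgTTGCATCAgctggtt
Aars and Tars hold the same 8 letters and Gars differs within them. Of the 3 genes, Aars rose by 0.12, while Gars stood at 0.02 and Tars at 0.01 with edgeR adjusted p of 0.764 and 0.906. Gars read 161, 153 and 158 CPM in NL and 155, 164 and 159 CPM in LIP, with overlapping groups, and the Tars groups overlapped as well. A match to the letters is not evidence that a factor binds there.

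The multisynthetase complex joins 8 of the cytosolic enzyme chains (Eprs, Iars, Lars, Qars, Mars, Kars, Rars and Dars) on 3 scaffold proteins, encoded by Aimp1, Aimp2 and Eef1e1. Of the 8 enzyme genes Lars rose and Dars fell, with a median log2 fold change of 0.00, and of the 12 cytosolic genes outside the complex 2 rose and 2 fell, also with a median of 0.00. All 3 scaffold genes fell in the TMM-scaled test. With log2(TPM + 1), however, Aimp2 stood at 0.01, beside a median of 0.11 for all genes, and with the length and GC offset Aimp1 stood at 0.08. Eef1e1, whose product also takes part in the DNA damage response, read 40.0, 43.0 and 43.5 CPM in NL replicates 1, 2 and 3 and 34.5, 35.2 and 33.2 CPM in LIP replicates 1, 2 and 3. The groups were well apart, with a log2 fold change of -0.30 ± 0.05 (SE) and an edgeR adjusted p of 1.23e-05, and Eef1e1 was called lower in all 19 alternative fits, with values from -0.33 to -0.15. Aimp1, which holds the arginine enzyme in the complex and is also released as a cytokine, read 64.4, 65.2 and 60.7 CPM in NL and 58.2, 56.8 and 56.8 CPM in LIP, a log2 fold change of -0.15 ± 0.04 with an edgeR adjusted p of 0.00857. Aimp2, the core of the scaffold, read 66.3, 64.6 and 66.6 CPM in NL and 63.9, 58.1 and 60.1 CPM in LIP, a log2 fold change of -0.12 ± 0.04 with an edgeR adjusted p of 0.0377.

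The Aimp1 and Aimp2 calls were lost with the offset for transcript length (-0.05 and -0.03, edgeR adjusted p of 0.417 and 0.669) and in total in 6 and 11 of 19 alternative fits. Among fits without 1 library, Aimp1 lost its call without NL replicate 2 (0.0728). Aimp2 kept its call only without LIP replicate 1, and had edgeR adjusted p of 0.109, 0.0646 and 0.116 without the NL replicates 1, 2 and 3 and of 0.193 and 0.0814 without the LIP replicates 2 and 3.

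**Figure D3:**
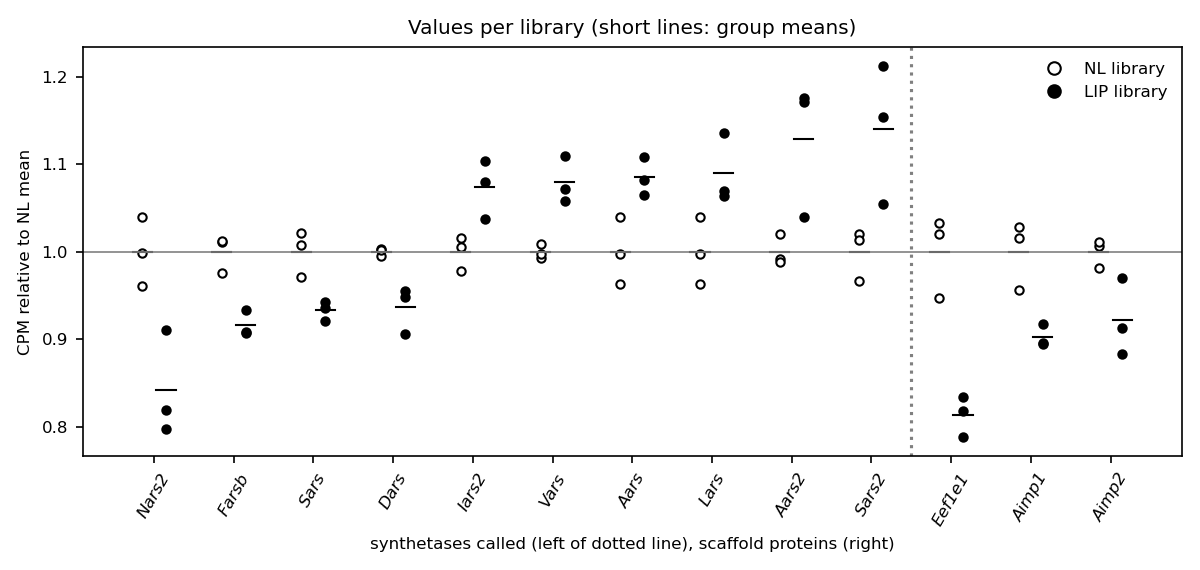
CPM of each library divided by the NL mean of the gene, for the 10 called synthetase genes (left of the dotted line, ordered by change) and the 3 scaffold genes (right); open points are NL, filled points LIP, short lines group means. In each of the 13 genes the LIP points lie wholly on one side of the NL points. On the log2(TPM + 1) scale, where the median of all genes is 0.11, Sars, Dars and Aimp2 change sign. Aimp1 does so with the length and GC offset.

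Among mitochondrial enzymes Sars2, Aars2 and Iars2 rose. Sars2, for serine (chromosome 7, 28741957 to 28753879), read 24.9, 23.6 and 24.8 CPM in NL replicates 1, 2 and 3 and 25.8, 28.2 and 29.6 CPM in LIP replicates 1, 2 and 3. LIP replicate 1 lay closest to NL, and the log2 fold change was 0.19 ± 0.06 (SE) with an edgeR adjusted p of 0.0146. Aars2, for alanine (chromosome 17, 45503515 to 45520843), read 23.5, 23.4 and 24.1 CPM in NL and 24.6, 27.7 and 27.8 CPM in LIP, a log2 fold change of 0.18 ± 0.06 with an edgeR adjusted p of 0.0261. Iars2, for isoleucine (chromosome 1, 185286642 to 185329419), read 102, 98.3 and 101 CPM in NL and 108, 111 and 104 CPM in LIP, a log2 fold change of 0.10 ± 0.04 with an edgeR adjusted p of 0.0353, and was the called member closest to the threshold. Just beyond the threshold, Ears2, for glutamate, read 14.8, 15.9 and 15.4 CPM in NL and 16.8, 18.1 and 17.6 CPM in LIP, a log2 fold change of 0.18 ± 0.08 with an edgeR adjusted p of 0.0565. All Ears2 values of LIP lay above those of NL, but its counts were not whole in every library.

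Nars2, the mitochondrial asparagine enzyme (chromosome 7, 96950839 to 97064758), fell most in the family. It read 16.6, 17.3 and 16.0 CPM in NL and 15.2, 13.6 and 13.3 CPM in LIP, a log2 fold change of -0.25 ± 0.08 (SE) with an edgeR adjusted p of 0.0125. Tars2, for threonine, read 74.4, 77.9 and 75.4 CPM in NL and 74.0, 70.7 and 67.7 CPM in LIP, a log2 fold change of -0.10 with an edgeR adjusted p of 0.0668. It was not called although the groups did not overlap in CPM, and in TPM they overlapped. Fars2, the mitochondrial phenylalanine enzyme, read 30.1, 30.2 and 33.3 CPM in NL and 28.2, 29.1 and 31.5 CPM in LIP, with overlapping groups and a log2 fold change of -0.08. Yars2, for tyrosine, read 31.1, 29.7 and 31.4 CPM in NL and 29.0, 29.1 and 29.9 CPM in LIP, again overlapping, with a log2 fold change of -0.07. The remaining 9 mitochondrial genes lay between -0.04 for Cars2 and 0.07 for Vars2. Among them Cars2 had all LIP libraries below NL in CPM, with an edgeR adjusted p of 0.609, but all above NL in TPM. The Cars2 TPM were 42.95, 44.53 and 42.78 in NL and 46.52, 47.36 and 46.19 in LIP. Wars2, the least abundant, read 16.4, 16.1 and 16.4 CPM in NL and 16.0, 17.5 and 16.1 CPM in LIP.

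Every mitochondrial call was lost without NL replicate 2, with edgeR adjusted p of 0.0817 for Sars2, 0.0835 for Aars2, 0.142 for Iars2 and 0.0744 for Nars2. With log2(TPM + 1) Nars2 stood at -0.10 and was not called (limma adjusted p = 0.245). The Sars2 and Nars2 calls were lost without LIP replicate 3 (0.111 and 0.0689), the Aars2 call without NL replicate 1 (0.0719), LIP replicate 2 (0.116) or LIP replicate 3 (0.112), and the Iars2 call without NL replicate 3 (0.0573), LIP replicate 1 (0.0872) or LIP replicate 2 (0.154).

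For 14 amino acids the table held a cytosolic and a mitochondrial gene with matching symbols, and their ratio within a library does not depend on how libraries are scaled to each other. The log2 ratio of Sars2 to Sars CPM was -2.45, -2.60 and -2.51 in NL and -2.33, -2.22 and -2.16 in LIP, so that the mean moved by 0.29. The log2 ratio of Nars2 to Nars was -3.36, -3.33 and -3.33 in NL and -3.47, -3.65 and -3.64 in LIP, a move of -0.25. For Aars2 to Aars, where both genes rose, the mean ratio moved by 0.055 with overlapping groups. The groups were apart in 5 of the 14 pairs, among them Cars2 to Cars (-0.13) and Lars2 to Lars (-0.07). An exact two-sided permutation test over 3 against 3 libraries cannot go below p = 0.1, which these 5 ratios reached, with an adjusted p of 0.28 over the 14 pairs.

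Synthetases fall into 2 structural classes that share no fold in the catalytic domain. Of 18 class I genes 3 rose, Vars, Lars and Iars2, and 15 were not called, so that 16.7% were called beside 29.9% of all tested genes, with a median log2 fold change of 0.035. Of 18 class II genes 3 rose, Aars, Aars2 and Sars2, and 4 fell, Farsb, Dars, Sars and Nars2, which makes 38.9% called, with a median of -0.01. A difference between the classes was not tested. Eprs holds a domain of each class and was counted in neither.

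Longer transcripts tended to stand higher in LIP, in the family and in the whole table. Over the 37 members the log2 fold change correlated with the log2 of the effective transcript length with Pearson's r of 0.353 (Spearman's rho 0.430), and over all 12564 tested genes with r of 0.230 (rho 0.275). For the GC content of the longest annotated transcript r was 0.424 (rho 0.277) over the members and 0.173 (rho 0.237) over 12382 tested genes. These are descriptions across genes, which share libraries and are not independent. The 6 members that rose had a median effective length of 3440 bases and the 4 that fell 2333 bases. With the length offset 3 cytosolic genes were called higher and 3 lower, and 2 and 1 mitochondrial ones. Under the joint offset for length and GC the cytosolic split was 1 higher and 4 lower and the mitochondrial split 2 and 2.

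The enzymes and sensors around tRNA charging were described from lists of related genes. Of the accessory genes of mitochondrial charging, the tRNA amidotransferase subunits Qrsl1, Gatb and Gatc, which convert glutamate on glutamine tRNA to glutamine, and the formyltransferase Mtfmt, none was called by edgeR, by DESeq2 or at an unadjusted p below 0.05 with edgeR, with log2 fold changes from -0.07 to 0.09. Of 10 synthetase relatives and tRNA editing or end-processing genes 1 rose and 1 fell, a smaller share than the 29.9% of all tested genes. Sepsecs, which makes selenocysteine on its tRNA in place of a selenocysteine synthetase, rose from 7.86, 9.42 and 7.91 CPM in NL to 11.4, 10.4 and 11.3 CPM in LIP, a log2 fold change of 0.39 ± 0.10 (SE) with an edgeR adjusted p of 0.00149. Trnt1, which adds the CCA end that every synthetase needs on its tRNA, fell from 58.5, 57.4 and 54.9 CPM in NL to 48.0, 45.6 and 43.8 CPM in LIP, a log2 fold change of -0.31 ± 0.05 with an edgeR adjusted p of 5.44e-07. Both changes were larger than that of any synthetase and kept their call and direction in all 19 alternative fits. The Trnt1 counts, however, were not whole numbers, as with Farsb.

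In the list of GCN2 sensing and eIF2α genes 2 of 14 tested members rose and 1 fell, 21.4% beside the 29.9% of all tested genes, with a median of -0.00. Gcn1l1, the GCN2 coactivator that senses stalled ribosomes, rose by 0.14 and Eif2ak1, the heme-regulated eIF2α kinase, by 0.12, while Eif2s1, the gene of eIF2α itself, fell by 0.18. Eif2ak4, which encodes GCN2, stood at 0.09 with an edgeR adjusted p of 0.139. The Gcn1l1 call was lost with the length offset (0.08, edgeR adjusted p = 0.0581) and with the length and GC offset (0.03, edgeR adjusted p = 0.59). That of Eif2s1 was lost with log2(TPM + 1) (-0.05, limma adjusted p = 0.310). The Eif2ak1 call was lost when NL replicate 1 (0.0829), NL replicate 3 (0.0560) or LIP replicate 2 (0.269, at a log2 fold change of 0.07) was left out.

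In the list of ATF4 and amino acid response genes 4 of 19 tested members fell and 1 rose, 26.3% in all and near the 29.9% of all tested genes, with a median log2 fold change of -0.07. Atf4 itself read 161, 155 and 152 CPM in NL and 157, 144 and 154 CPM in LIP, with overlapping groups, a log2 fold change of -0.04 and an edgeR adjusted p of 0.458. The serine synthesis genes Phgdh and Psph fell by 0.16 and 0.25, Ddit4, an inhibitor of mTORC1, by 0.25 and Ddit3, the stress transcription factor CHOP, by 0.44. Ddit3 lies over part of the Mars gene in the annotation, and the sources used here do not give whether the counting used strand. Vldlr, a lipoprotein receptor gene, rose by 0.39, and Asns, the asparagine synthetase gene and a classical ATF4 target, stood at -0.13 with an edgeR adjusted p of 0.0533. With the length and GC offset the list had 1 member higher and 7 lower, at a median of -0.10 beside 0.003 for all genes. With log2(TPM + 1) the list had 4 members higher and 1 lower, at a median of 0.05 beside 0.11 for all genes, and none of the 4 genes that fell was called on that scale.

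Of 15 tested amino acid transporter genes 6 rose, 40.0% beside 14.1% of all tested genes called higher, and the other 9 were not called, with a median log2 fold change of 0.12. With the length and GC offset 6 were called higher and the median was 0.06. Slc7a5, the light chain of the large neutral amino acid transporter, read 98.6, 101 and 93.9 CPM in NL replicates 1, 2 and 3 and 113, 122 and 120 CPM in LIP replicates 1, 2 and 3, a log2 fold change of 0.27 ± 0.04 (SE) with an edgeR adjusted p of 9.88e-08. Slc3a2, its heavy chain, stood at 0.04 with an edgeR adjusted p of 0.452. Slc1a5, a carrier of glutamine and other neutral amino acids, read 143, 145 and 136 CPM in NL and 170, 168 and 173 CPM in LIP, a log2 fold change of 0.27 ± 0.04. Slc7a8, another neutral amino acid carrier, rose by 0.36, Slc7a1, a carrier of arginine and lysine, by 0.21 and Slc36a4 by 0.26, and these 5 genes were called in all 19 alternative fits. Slc6a9, a glycine carrier at under 3 CPM, rose by 0.62, and its call was lost without NL replicate 3 (0.0536) or LIP replicate 3 (0.0703). Slc38a2, a carrier induced by amino acid shortage, stood at -0.06 with an edgeR adjusted p of 0.165. A difference between this list and the synthetases was not tested.

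**Figure D4:**
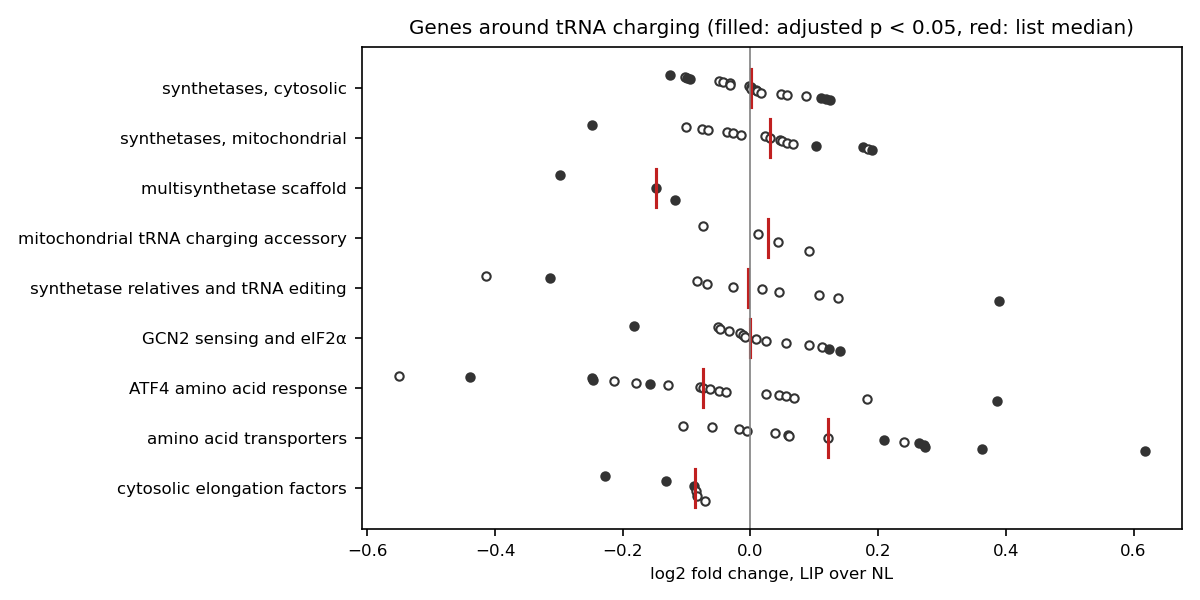
Log2 fold change of LIP over NL for each tested gene of the synthetase sets and of the related lists, 1 point per gene, filled where the edgeR adjusted p is below 0.05; red bars are list medians. The synthetase medians lie at 0.00 and 0.03, the scaffold median at -0.15 and the transporter median at 0.12. On the log2(TPM + 1) scale the ATF4 and elongation factor medians become 0.05 and 0.04, beside 0.11 for all genes. With the length and GC offset the scaffold and transporter medians become -0.07 and 0.06, beside 0.003 for all genes.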

How the data were processed

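For each library the authors deposited estimated counts, some of them fractional, made by a tool not given in the sources used here, together with FPKM and TPM, per the file headers. Per the submitters' processing notes, STAR, HTSeq and GRCm38 were used, without versions or roles. The 6 columns of group means by the authors were not used. Members and gene lists were chosen with earlier results of these data known. Every member may be named, and of each list the called genes were named, or the 3 of smallest p in each direction above 6; Atf4, Asns, Eif2ak4, Slc3a2, Slc38a2 and the accessory genes were named after their values were seen. Values per library are given for the 4 members of smallest p per direction and set, the most and least abundant members and those next to the threshold, and, chosen after the values were seen, for Farsa, Gars and several list genes.

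The test had been planned for counts in general; estimated counts were rounded, filtered with filterByExpr (12564 genes kept, 3839 left out), TMM-scaled and tested with edgeR 4.0.16 (glmQLFit, robust, group only) in R 4.3.3. Standard errors came from the test statistic. On simulated data for this comparison with 12564 genes, 100 of them changed at each size, 74% of changes of 0.25 on the log2 scale and 100% of those of 0.5 were recovered. Effective lengths were derived from the authors' deposited FPKM and counts. Alternatives were DESeq2 1.42.0, limma 3.58.1 (voom, and log2 of the deposited TPM with a pseudocount of 1), other scalings and filters, a replicate block, a threshold of 0.01, non-robust estimation, a length offset (lowess, span 0.3) and leaving out each library. The length and GC offset (GC known for 98.6% of tested genes, GENCODE M21) was added after seeing the data. Of the members 34 had whole counts in every library; Farsb, Ears2 and Wars2 did not. The values of 1 mitochondrial member are not reported here; it is included in the counts, sums and medians.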

Additional observations from a re-analysis of the deposited data

How the results depend on the processing

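DESeq2 and a threshold of 0.01 gave 2484 and 2493 calls over all genes in place of 3760, 2 cytosolic calls each in place of 6, and 0 mitochondrial calls each in place of 4, with 4 and 6 mitochondrial genes at an unadjusted p below 0.05. Limma on log2(TPM + 1) called 13 cytosolic and 8 mitochondrial genes, all higher, where 4657 of all genes were higher and 542 lower and the median of all genes moved to 0.11. With total counts only the split over all genes was 2756 higher and 1301 lower. Leaving out 1 library gave 2987 to 3397 calls over all genes, 3 to 6 cytosolic and 0 to 4 mitochondrial ones. With a call in either fit, signs turned with log2(TPM + 1) for Dars (0.033), Sars (0.027), Kars (0.093), Nars (0.125), Eif2b5 (0.109), Cd34 (0.087), Eef1d (0.047) and Aimp2 (0.01). They also turned with the length offset for Eef1d (0.025) and with the length and GC offset for Eef1d (0.022) and Aimp1 (0.084). The cause was not tested. The replicate block gave 3729 calls over all genes, 6 cytosolic and 4 mitochondrial. Deviations of same-numbered libraries correlated at 0.03, -0.016 and -0.113, so the numbers were not taken to pair the libraries. Over the synthetase genes, 626 of 703 gene values under an alternative kept their side of the threshold and 4 turned sign with a call involved. Of the 626, 43 changed sign without a call, with Cars2 going from -0.04 to as high as 0.10. In the simulation of this comparison 74% of changes of 0.25 on the log2 scale were recovered, and all synthetase values are smaller than that. The simulation changed only 100 genes at each size, against 3760 called in the data. Its adjusted threshold was therefore not that of the data, and its recovery cannot be carried over to the synthetases.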

Other observations

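The list of cytosolic elongation factors held Eef1a1, whose product carries charged tRNA to the ribosome, its exchange factor complex (Eef1b2, Eef1d and Eef1g), the translocation factor Eef2, and Eif5a, which helps peptide bonds form. Of these 6 genes 3 fell, beside 15.8% of all tested genes called lower: Eef1b2 by 0.23, Eef1a1 by 0.13 and Eef1d by 0.09 on the log2 scale. The list median was -0.09 beside -0.001 for all genes, and with log2(TPM + 1) it was 0.04 beside 0.11 for all genes. Eef1b2 read 816, 861 and 834 CPM in NL and 727, 711 and 707 CPM in LIP and was called in all 19 alternative fits. Eef1d lost its call in 14 of 19 fits and stood at 0.025 with the length offset. The Eef1a1 call was lost in 4 of 19 fits, among them those without NL replicate 2 (edgeR adjusted p = 0.0638) or NL replicate 3 (0.0543); the Eef1d call was lost without NL replicate 2 (0.241), NL replicate 3 (0.231), LIP replicate 1 (0.129) or LIP replicate 2 (0.130).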
